A study of Mus musculus with 51 samples.

Results

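The genes described here write and erase methyl groups on lysines of histone tails. They form a given list of 35 autosomal histone lysine methyltransferases and demethylases, older Mll and Jmjd names included, and each gene is read from the 1 probe set with the highest mean log2 intensity over all 51 arrays. Of the 35, 34 were measured among 18193 genes with a named probe set, and Ash1l has no probe set named in the annotation used here. Affymetrix arrays profiled 4 populations sorted from mouse bone marrow, namely haematopoietic stem cells (HSC), the common lymphoid (CLP) and common myeloid (CMP) progenitors, and the granulocyte-macrophage progenitors (GMP) that arise from CMP. The cells came from wild type mice and from Mll-AF9 knock-in mice, in which the endogenous Mll gene carries the leukaemic fusion to AF9, and the study asked which genes differ between the genotypes in each population. Wild type replicates numbered 5 for HSC, 8 for CLP, 5 for CMP and 5 for GMP, and the knock-in had 5, 7, 4 and 4. The titles list a first and a second run for 8 CMP replicates, which enter as the mean of their 2 runs. What a run stands for is not stated in the labels used here. The labels used here do not give zygosity, age or sex. They also do not say that each replicate is a mouse of its own, and a p-value therefore reflects sample-to-sample spread that could be technical.

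Methylation of lysine 4 of histone H3 (H3K4) marks active promoters and enhancers, and methylation of lysine 36 (H3K36) marks transcribed gene bodies. Methylation of lysines 9 and 27 (H3K9, H3K27) accompanies silent chromatin. Mll, the gene altered in the knock-in, is itself an H3K4 methyltransferase, and in blood the demethylase Kdm1a acts with the repressors Gfi1 and Gfi1b at lineage genes. The marks are removed by 2 enzyme families, the flavin-dependent amine oxidases Kdm1a and Kdm1b and the iron-dependent Jumonji proteins.

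Most promoters of the genes were richer in CpG than the median promoter. RefSeq promoter windows (build GRCm38.p6, 250 bases before to 50 after the start) matched 24 of the 34 measured genes. They held a median of 27.5 CpG dinucleotides against 7 in all 27025 windows, and 22 of the 24 lay above that median. They varied widely among themselves, from 0 to 65 CpG and from 39.7% to 88.0% GC. Only 1 window per gene was used. Those of Setd5, which had the lowest GC, and of Jmjd1c, Kmt2d and Kdm2b lay wholly inside the annotated gene, past its outermost start. The GC box (GGGCGG, either strand) occurred in 16 of 24 windows, 66.7%, against 35.9% of all windows, and the CCAAT box (CCAAT, either strand) in 8, 33.3%, against 37.9%. The TATA box (TATAAA, either strand) was in none of the 24 against 14.2% of all windows. A match is a stretch of letters and not a measured site. The windows below belong to genes with called differences between wild type GMP and other wild type populations, described further on. By their chosen probe sets Setd3 and Kdm5b were lower in GMP and Smyd5 and Smyd2 higher, with Smyd5 not called against CMP. The only other Setd3 probe set was called higher in GMP than in HSC. Capitals mark GC boxes, CCAAT boxes and, in Smyd5, the YY1 motif. Setd3 lies at chr12:108179235-108179534 (minus strand), Kdm5b at chr1:134559928-134560227 (plus), Smyd5 at chr6:85431726-85432025 (plus) and Smyd2 at chr1:189922242-189922541 (minus).
Setd3: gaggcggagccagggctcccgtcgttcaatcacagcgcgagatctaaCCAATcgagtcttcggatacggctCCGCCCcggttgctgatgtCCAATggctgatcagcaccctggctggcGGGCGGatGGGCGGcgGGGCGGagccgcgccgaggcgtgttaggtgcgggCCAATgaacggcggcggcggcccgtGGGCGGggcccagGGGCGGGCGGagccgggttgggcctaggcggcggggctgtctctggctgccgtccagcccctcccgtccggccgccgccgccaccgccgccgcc
Kdm5b: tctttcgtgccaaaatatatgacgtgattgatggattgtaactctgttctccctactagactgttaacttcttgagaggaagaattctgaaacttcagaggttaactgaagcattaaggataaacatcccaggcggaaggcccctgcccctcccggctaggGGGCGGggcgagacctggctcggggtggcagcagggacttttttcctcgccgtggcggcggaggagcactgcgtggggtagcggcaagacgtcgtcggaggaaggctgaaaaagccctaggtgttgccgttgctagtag
Smyd5: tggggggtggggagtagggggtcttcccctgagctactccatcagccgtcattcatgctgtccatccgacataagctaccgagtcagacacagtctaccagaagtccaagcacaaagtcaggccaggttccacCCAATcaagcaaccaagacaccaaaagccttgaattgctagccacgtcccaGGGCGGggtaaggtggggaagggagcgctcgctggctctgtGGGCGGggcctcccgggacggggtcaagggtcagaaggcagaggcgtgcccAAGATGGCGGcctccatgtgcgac
Smyd2: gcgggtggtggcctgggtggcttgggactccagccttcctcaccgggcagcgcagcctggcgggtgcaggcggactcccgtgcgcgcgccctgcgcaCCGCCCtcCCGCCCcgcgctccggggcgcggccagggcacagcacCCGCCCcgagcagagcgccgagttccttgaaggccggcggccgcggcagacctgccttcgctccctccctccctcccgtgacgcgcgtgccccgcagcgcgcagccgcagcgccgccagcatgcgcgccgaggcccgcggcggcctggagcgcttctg
Setd3 held 7 GC boxes and 3 CCAAT boxes, Smyd2 held 3 GC boxes, Smyd5 held 2 and Kdm5b held 1. Genes on both sides of the comparison thus carried GC boxes. The YY1 motif was in 2 of the 24 windows (8.33%), those of Smyd5 and Suv39h2, against 0.899% of all windows. ETS, NRF1, CRE, AP-1, E-box, PU.1, C/EBP and GATA motifs were also counted. Each was in 0 to 3 of the 24 windows, against 1.88% to 11.4% of all windows. Kdm6b and Kmt2e, which had the largest differences described below, had no window.

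Several features of the samples bear on every comparison. Primary granule genes set GMP apart, with a mean level of 12.1 to 12.8 over the list in wild type replicates against 7.41 to 10.7 in the others, and the erythroid and megakaryocytic list was highest in CMP, at a median of 10.2 against 6.33 in GMP and 7.69 in CLP. CLP had the lymphoid receptor Il7r at a wild type mean of 9.54 ± 1.23 (SD, n = 8), but the stem cell genes Mecom, Hlf and Procr were at 8.42, 9.31 and 8.58 there against 8.77, 10.07 and 8.56 in HSC, and the mean of the stem cell marker Slamf1 was below background in wild type CLP and HSC. Of the 6 listed lymphoid genes, 2 were called higher in wild type CLP than in HSC, where 0.0385% of all genes were called. The lymphoid genes Dntt and Flt3 were at 12.30 and 10.05 in wild type CLP and at 11.59 and 9.86 in HSC. Ebf1 was below background in both, at 4.25 and 3.26. The Mll-AF9 CLP replicates and wild type CLP replicate 1 carry the source name of CMP, and the title, which these markers follow, was used. Y-linked genes were low in all Mll-AF9 replicates and in 2 wild type replicates each of GMP, CMP and CLP and 3 of HSC, so sex and genotype overlap. The difference between 3′ and 5′ control probe sets, a sign of RNA degradation, ran from 2.59 to 4.70 in wild type GMP, highest in replicate 1, which also stood apart from its group. CMP values carry more decimals than the others in the deposited table, and nothing used here says whether they were normalised apart.

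The Mll-AF9 allele came with no called change in any of the 34 genes. Called here means a Benjamini-Hochberg adjusted p below 0.05 in limma over all 18193 genes. In each of the 4 populations 0 of 34 were called, while 0.264% of all genes were called in GMP, 0.418% for CMP, 0.346% for CLP and 0.0495% for HSC. At an unadjusted p below 0.05 GMP had 7 genes, CMP had 4, and CLP and HSC had 3 each. The share of all genes at that unadjusted threshold was not computed. Such counts, here and below, therefore cannot be set against a background. On the log2 scale, the median over the 34 genes of the knock-in level less the wild type level was 0.06 in GMP, -0.02 for CMP, 0.04 for CLP and 0.03 for HSC, against -0.02, 0.00, 0.06 and 0.01 over all genes. The 95% intervals show what the replicates could resolve. In CMP all 34 intervals lay within a 2-fold change, in CLP 30 did, in GMP 27 and in HSC 23. The interval reaching farthest from 0 was that of Kdm6b in CLP, from -2.09 to 0.28. None of the 61 to 67 probe sets of these genes above background was called in any population either.

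**Figure D1:**
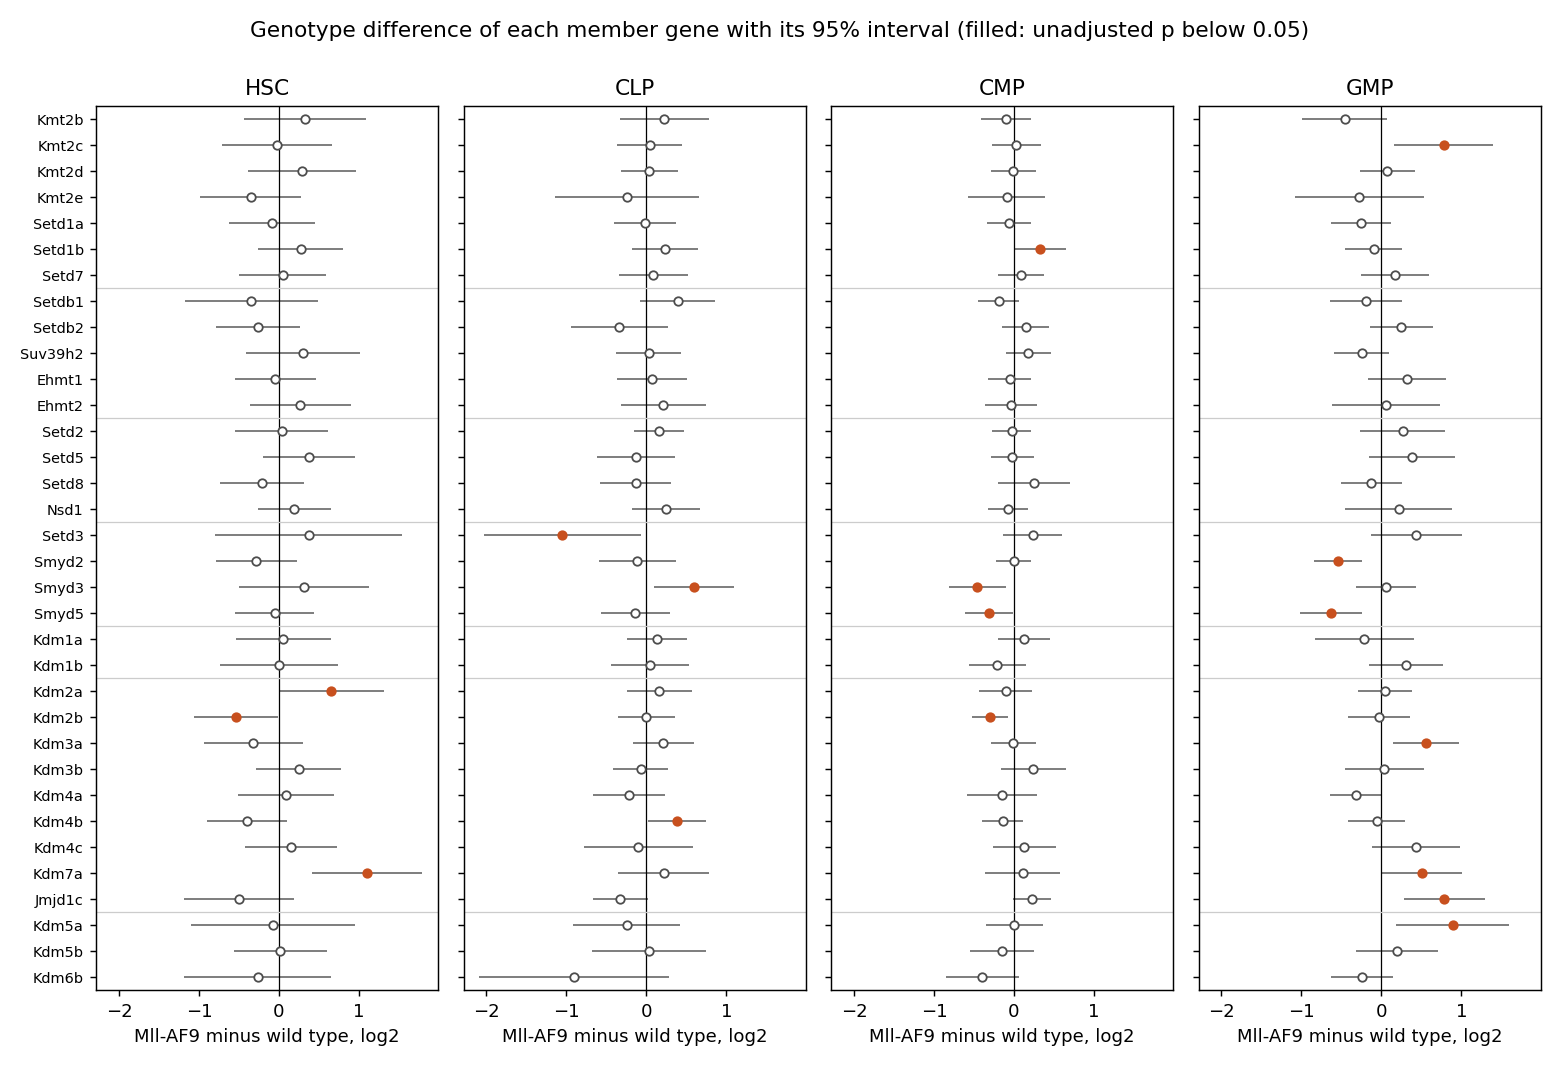
Difference between Mll-AF9 and wild type (log2 RMA intensity, points) for the 34 genes in HSC, CLP, CMP and GMP, with 95% intervals (lines). Genes are grouped by role, filled points have an unadjusted p below 0.05, and most intervals include 0. The interval of Kdm6b in CLP reaches farthest from 0.

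The smallest genotype p-values in GMP belonged to SET and MYND domain proteins, which methylate lysines of histones and of other proteins. Smyd2 read 9.73, 9.72, 9.79, 9.52 and 9.61 in the wild type GMP replicates and 9.24, 8.92, 9.19 and 9.17 in the Mll-AF9 ones. The groups did not overlap, and the difference of -0.54 ± 0.14 (SE) had a limma adjusted p of 0.18. Smyd5 read 7.76, 8.00, 8.40, 7.90 and 8.18 in wild type GMP and 7.70, 7.11, 7.47 and 7.40 in Mll-AF9 GMP. The groups again lay apart, by a narrow margin, with a difference of -0.63 ± 0.18 and an adjusted p of 0.263, and the mean of all Smyd5 probe sets differed by -0.30. Non-overlapping groups were seen for 4 genes in GMP, these and the demethylases Kdm4a and Jmjd1c, where 4.34% of all genes did not overlap. There were 0 in CMP, CLP and HSC, where 2.68%, 0.253% and 1.23% of all genes did not overlap.

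The other GMP genes with an unadjusted p below 0.05 were higher in Mll-AF9 samples. They were Kmt2c (0.78 ± 0.29), which methylates H3K4 at enhancers, the H3K9 demethylases Kdm3a (0.56 ± 0.20), Jmjd1c (0.78 ± 0.24) and Kdm7a (0.51 ± 0.23), and the H3K4 demethylase Kdm5a (0.89 ± 0.33). Kdm3a was called when the wild type group was limited to its replicates low in Y-linked genes, at 0.89 ± 0.18 and a limma adjusted p of 0.0374. Those replicates, 4 and 5, also had the lowest 3′ to 5′ differences of wild type GMP, 2.59 and 2.76. With the Y-linked mean or the 3′ to 5′ difference as a covariate over all GMP replicates, no gene on the list was called. The separate parts of sex and of RNA quality in the limited comparison were not tested.

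In CMP the smallest p-values were those of Kdm2b and Smyd3. Kdm2b, an H3K36 demethylase that brings Polycomb proteins to CpG islands, read 10.24, 10.40, 10.35, 10.40 and 10.26 in wild type CMP and 10.27, 9.89, 9.90 and 10.07 in Mll-AF9 CMP. Replicate 1 of the Mll-AF9 group lay within the wild type range, and the difference was -0.30 ± 0.11 (adjusted p 0.515), or -0.47 with the first CMP run and -0.13 with the second. Smyd3 read 6.84, 7.17, 7.10, 7.51 and 7.42 in wild type CMP and 6.39, 6.71, 6.99 and 6.91 in Mll-AF9 CMP, a difference of -0.46 ± 0.16 (adjusted p 0.517) between overlapping groups. It was -0.16 with the mean of all its probe sets and -0.71 against the wild type replicates low in Y-linked genes. In CLP the sign for Smyd3 was the opposite. Wild type CLP ran from 5.30 over a median of 6.21 to 6.77 and Mll-AF9 CLP from 6.25 over 6.56 to 7.32, a difference of 0.60 ± 0.24 (adjusted p 0.444). It was 0.27 against the wild type replicates low in Y-linked genes and 0.24 with the mean of all its probe sets.

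Setd3 in CLP and Kdm7a in HSC had the largest of these differences, and single replicates weighed on both. Setd3, best known as the histidine methyltransferase of actin, ran from 8.19 over 8.56 to 9.22 in wild type CLP and from 4.47 over 8.25 to 8.94 in Mll-AF9 CLP. The difference was -1.05 ± 0.47 (adjusted p 0.501), and -0.53 without Mll-AF9 CLP replicate 3, the lowest. Other measures also differed in range between the CLP groups. The mean of the T and NK cell list ran from 4.48 to 5.55 in wild type CLP and from 5.53 to 6.64 in Mll-AF9 CLP, that of the late neutrophil list from 4.03 to 11.5 and from 7.09 to 12.2, and the 3′ to 5′ difference from 3.36 to 3.91 and from 3.68 to 4.93. With the 3′ to 5′ difference as a covariate, no gene on the list was called in CLP either. The part of these measures in the CLP differences was not otherwise tested. Kdm7a, which removes H3K9 and H3K27 dimethyl marks, read 7.12, 6.18, 6.44, 6.23 and 6.51 in wild type HSC and 7.93, 8.08, 7.99, 7.60 and 6.41 in Mll-AF9 HSC. All Mll-AF9 replicates but the fifth were above every wild type one, with a difference of 1.11 ± 0.32 (adjusted p 0.457), and 0.18 when all probe sets of Kdm7a were averaged. Kdm2b read 10.48, 10.30, 9.82, 9.78 and 10.08 in wild type HSC and 9.75, 9.03, 9.34, 9.36 and 10.32 in Mll-AF9 HSC, with overlapping groups and a difference of -0.54 ± 0.24 (adjusted p 0.779), or -0.34 against the wild type replicates low in Y-linked genes.

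No gene on the list was called for a genotype effect that differed between populations. In the 6 contrasts between populations 0 of 34 were called by limma, with 0% of all genes called for GMP against CMP and for CMP against HSC, 0.044% for GMP against HSC, 0.143% for CLP against HSC, and 0.066% each for GMP and for CMP against CLP. At an unadjusted p below 0.05 there were 0 and 3 genes in the first pair of contrasts, 3 in GMP against HSC, 4 in CLP against HSC, 4 in GMP against CLP and 2 in CMP against CLP.

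The populations themselves differed widely, and GMP stood apart with lower levels. In wild type GMP against CMP, 17 of 34 genes were lower and 2 higher, where 16.4% of all genes were lower and 29.8% higher. Against HSC, 13 were lower and 4 higher (13.5% and 22.3% of all genes), and against CLP, 16 were lower and 5 higher (13.8% and 25.4%). The median differences were -0.55, -0.48 and -0.50, while those of all genes were 0.13, 0.14 and 0.15. These 3 comparisons share the GMP replicates. Quantile normalisation lowered the median of all genes to 0.03 for GMP against CMP and kept the counts of called members at 17 and 2. Without wild type GMP replicate 1 the lower genes numbered 20 against CMP, 14 against HSC and 10 against CLP. In bulk samples fewer cells of a type and less RNA per cell cannot be told apart.

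**Figure D2:**
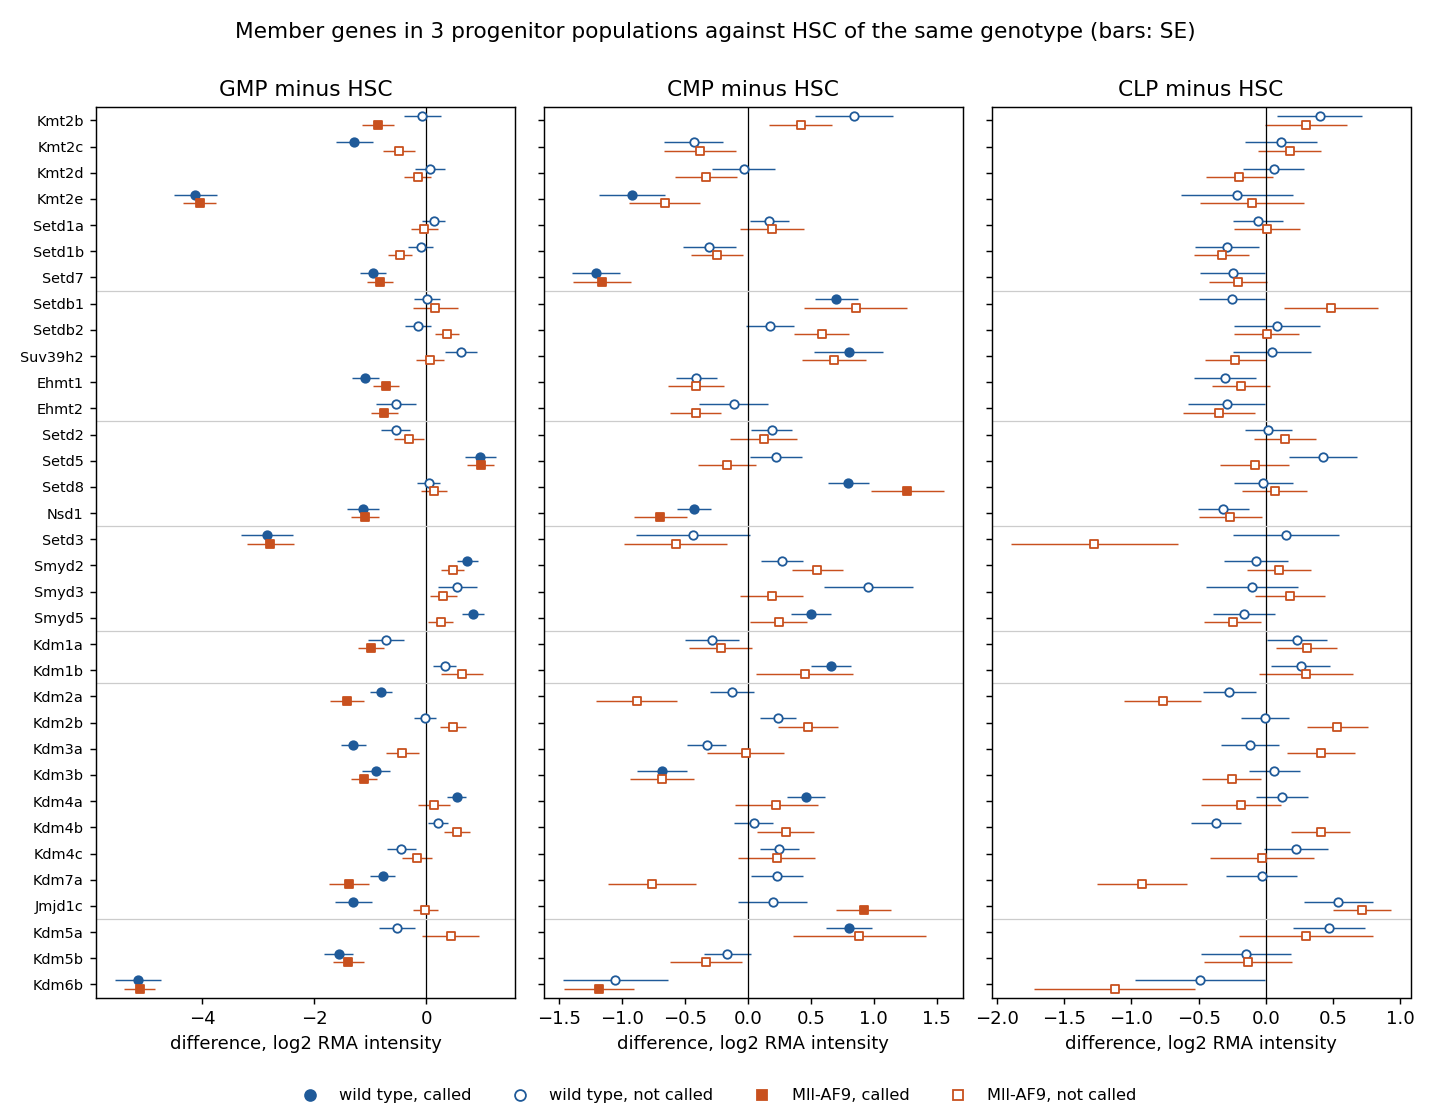
Difference of GMP, CMP and CLP from HSC of the same genotype (log2 RMA intensity, with SE bars) for the 34 genes, grouped by role, with filled symbols for called differences. Kdm6b, Kmt2e and Setd3 lie farthest to the left in the GMP panel in both genotypes, and no symbol is filled in the CLP panel.

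Among the genes listed as H3K4 methyltransferases, 3 of 7 were lower in GMP than in CMP, HSC or CLP in turn and none was higher. Of all genes 16.4%, 13.5% and 13.8% were lower, shares that also apply to the role counts below. Kmt2e, a SET protein of the Mll family that reads trimethylated H3K4, moved most. It read 6.79, 4.81, 4.84, 5.17 and 4.83 in wild type GMP, 8.18, 8.41, 8.74, 8.56 and 8.56 in CMP, 10.24, 9.49, 9.12, 9.74 and 8.48 in HSC, and from 7.53 over a median of 9.62 to 10.21 in CLP. Every GMP replicate was below every other wild type replicate. The difference was -3.20 ± 0.31 from CMP (limma adjusted p 1.21e-06), -4.13 ± 0.39 from HSC (1.67e-06) and -3.91 ± 0.44 from CLP (3.54e-06), that is 9.21-, 17.5- and 15.0-fold lower. Mll-AF9 GMP read 4.51, 5.78, 4.46 and 5.30, with -3.39, -4.05 and -3.95 against the same 3 populations. The other genes of this role that were called lower were Kmt2c in all 3 comparisons (-0.85, -1.28 and -1.39), Kmt2b, the closest relative of Mll, against CMP (-0.91), and Setd7, which places monomethyl H3K4 and methylates other proteins, against HSC (-0.95) and CLP (-0.70).

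Paralogues of this role gave different values. Kmt2c differed by -1.28 ± 0.33 between GMP and HSC while Kmt2d, its partner in enhancer methylation, differed by 0.07 ± 0.27, and Setd1a and Setd1b, the enzymes behind most promoter H3K4 trimethylation, differed by 0.13 ± 0.20 and -0.09 ± 0.22. The differences between paralogues were not tested. A second Kmt2d probe set was called higher in GMP, by 0.84 against CMP, and against HSC, where its mean of 4.38 was below background, at least 2.15-fold, with background taken as the floor.

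The H3K9 methyltransferases had calls in both directions. Ehmt1 was lower in GMP than in each other population (-0.68 from CMP, -1.09 from HSC, -0.78 from CLP), while its dimerisation partner Ehmt2 differed by -0.42, -0.53 and -0.24 with no call, and a second Ehmt2 probe set was called higher, by 0.46 against CMP and at least 1.56-fold against HSC, whose mean of 4.12 was below background. Setdb1, which silences retroelements, was lower than in CMP (-0.69). Suv39h2, an enzyme of constitutive heterochromatin, was higher than in CLP (0.58), and Setdb2 was not called, at -0.32, -0.14 and -0.22.

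Of the 4 measured H3K36 and H4K20 methyltransferases, 3 were lower in GMP than in CMP. They were Setd2, the enzyme that trimethylates H3K36 (-0.73), Nsd1, which places dimethyl H3K36 (-0.69), and Setd8, also named Kmt5a, the H4K20 monomethyltransferase (-0.75). Nsd1 was also lower than in HSC (-1.12) and CLP (-0.81) and Setd2 than in CLP (-0.56). The remaining member, Setd5, a SET protein whose substrate is disputed, was higher. It read 6.33, 7.59, 7.36, 6.61 and 7.22 in wild type GMP against 6.21, 6.36, 6.22, 6.22 and 6.38 in CMP and 6.77, 6.23, 5.84, 5.54 and 5.88 in HSC. GMP replicate 1 lay within the CMP range, and the difference was 0.75 ± 0.21 from CMP and 0.97 ± 0.28 from HSC. The call against CMP was lost with the mean of all probe sets (0.09), where a second Setd5 probe set was called lower (-0.47), and with the second CMP run (0.54).

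The remaining SET proteins held both directions. Setd3 read 6.46, 5.19, 5.69, 5.66 and 5.33 in wild type GMP, 7.67, 8.32, 8.39, 8.05 and 7.95 in CMP, 9.73, 9.28, 8.43, 8.63 and 6.50 in HSC, and from 8.19 over 8.56 to 9.22 in CLP. GMP was below all others, though HSC replicate 5 nearly met it. The differences of -2.41 ± 0.22, -2.85 ± 0.46 and -2.99 ± 0.24 from CMP, HSC and CLP had limma adjusted p-values of 6.30e-07, 2.66e-04 and 8.49e-08. In the knock-in, GMP read 5.89, 6.84, 5.88 and 5.81, with -2.21 from CMP and -2.78 from HSC called and -1.51 from CLP not called (adjusted p 0.096). Smyd2 and Smyd5 went the other way. Smyd2, given above for GMP, read 9.22, 9.16, 9.18, 9.14 and 9.34 in wild type CMP and 8.88, 9.22, 8.61, 8.62 and 9.36 in HSC, both below every GMP replicate, with differences of 0.47 ± 0.11 and 0.74 ± 0.19, and 0.81 ± 0.21 from CLP. The call against CMP was lost with all 8 groups in 1 model. Smyd5 read 7.34, 7.17, 7.16, 6.88 and 7.51 in HSC, again below GMP, and differed by 0.84 ± 0.20 from HSC and 1.00 ± 0.23 from CLP. In Mll-AF9 samples neither was called, with Smyd2 at -0.07 against CMP and 0.48 against HSC and Smyd5 at 0.02 and 0.26. Smyd3 was higher in GMP than in CLP (0.67 ± 0.24), a call lost without any of GMP replicates 2 to 5 or CLP replicates 5 and 6.

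Between wild type GMP and the other populations, the chosen probe sets of the amine oxidases gave 1 call. Kdm1a, or LSD1, was lower in wild type GMP than in CLP (-0.94 ± 0.26), with -0.42 and -0.71 against CMP and HSC. In Mll-AF9 cells it was called in all 3 comparisons (-0.77, -0.98 and -1.29). Kdm1b differed by -0.33, 0.33 and 0.07 in wild type cells. A second Kdm1a probe set was called lower in wild type GMP than in CMP, by a difference of -0.92 ± 0.22. Outside GMP, Kdm1b was called higher in wild type CMP than in HSC (means 5.96 and 5.30). Kdm1a was called lower in wild type CMP than in CLP (means 9.11 and 9.63).

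Among the 9 Jumonji demethylases of H3K36 and H3K9, 5 were lower in GMP than in CMP, 5 lower than in HSC and 5 lower than in CLP. Kdm2a, an H3K36 demethylase, Kdm3a, Jmjd1c and Kdm7a were lower in all 3 comparisons. Jmjd1c had the largest differences, -1.49 ± 0.21 from CMP, -1.30 ± 0.33 from HSC and -1.84 ± 0.22 from CLP, and Kdm3a followed with -0.97, -1.30 and -1.18. Their relative Kdm3b was lower than in HSC (-0.90) and CLP (-0.96), with -0.22 from CMP. The Kdm4 enzymes, which act on both marks, had no common direction. Kdm4c was lower than in CMP (-0.69), Kdm4a was higher than in HSC (0.55) and Kdm4b was higher than in CLP (0.58), and Kdm2b was called in none of the 3, at -0.26, -0.02 and -0.01.

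The Jumonji demethylases of H3K4 and H3K27 were all lower in GMP than in CMP. Kdm6b, which removes the Polycomb mark from H3K27, had the largest difference of all. It read 5.13, 4.62, 4.58, 4.75 and 5.01 in wild type GMP, 8.93, 9.36, 8.39, 8.72 and 9.16 in CMP, 11.80, 10.07, 9.13, 9.83 and 9.01 in HSC, and from 8.33 over 9.11 to 10.95 in CLP. GMP lay close to the background level of 4.46, the 95th percentile of genes for olfactory, vomeronasal and taste receptors and keratin-associated proteins, and far below every other replicate. The differences were -4.09 ± 0.19 from CMP (17.1-fold lower, limma adjusted p 4.13e-10), -5.15 ± 0.41 from HSC (35.5-fold, 3.41e-07) and -4.66 ± 0.38 from CLP (25.3-fold, 1.04e-07). Mll-AF9 GMP read 4.50, 4.94, 4.16 and 4.71 and differed by -3.94, -5.12 and -4.00. Kdm5b, an H3K4 demethylase, had differences of -1.40 ± 0.21, -1.57 ± 0.26 and -1.42 ± 0.34, all called, and Kdm5a had -1.33 ± 0.29 from CMP and a 1.99-fold lower level than CLP (limma adjusted p 0.0229), with -0.53 ± 0.32 from HSC not called.

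**Figure D3:**
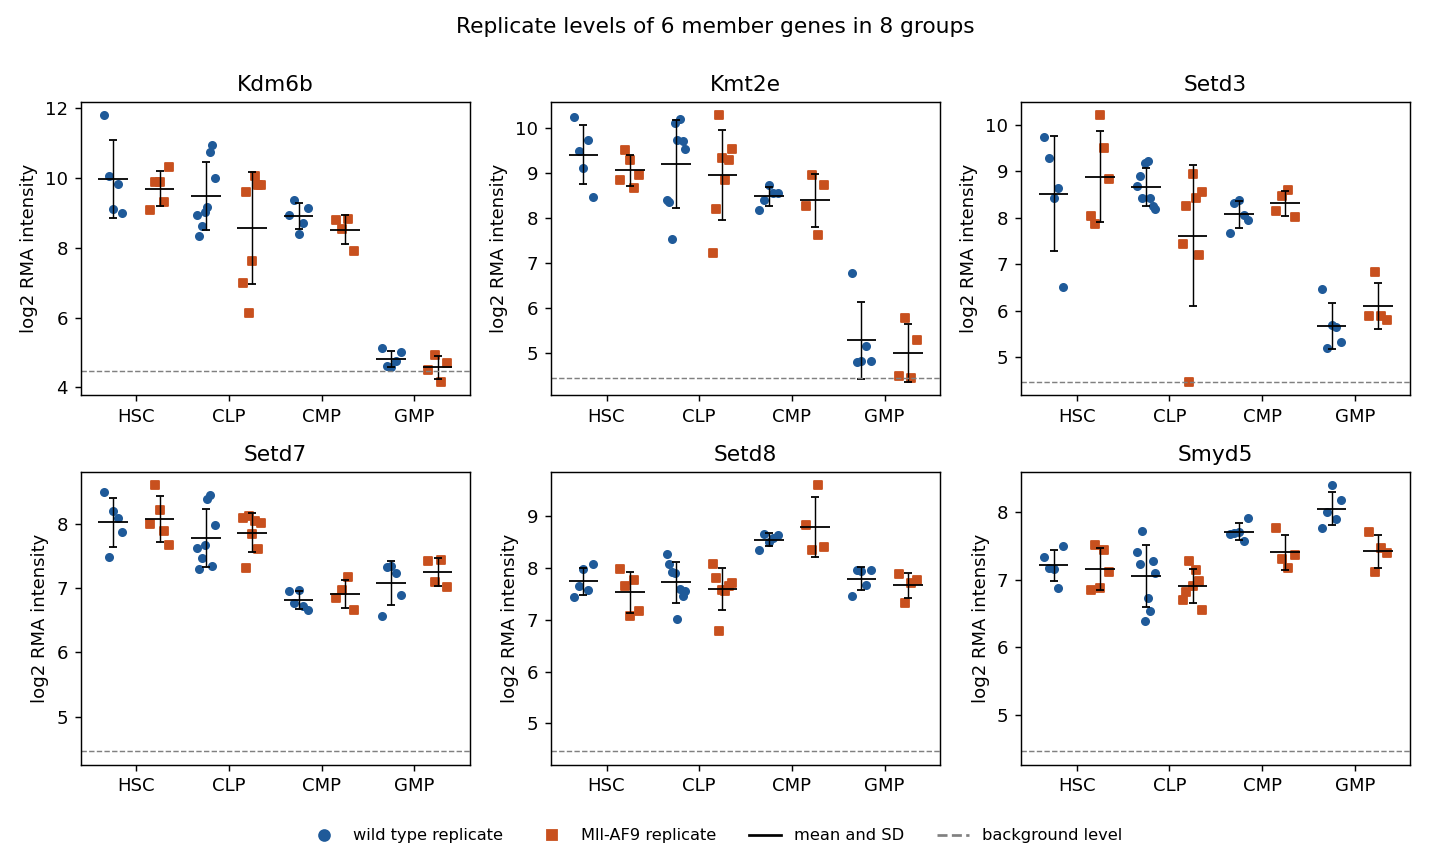
Log2 RMA intensity of each replicate (points) with the group mean and SD (black) for Kdm6b, Kmt2e, Setd3, Setd7, Setd8 and Smyd5 in HSC, CLP, CMP and GMP of both genotypes, with the background level dashed. Kdm6b and Kmt2e lie near the background level in GMP, Setd7 is lower in CMP than in HSC and CLP, and Setd8 is higher in CMP than in the other populations.

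Other probe sets of the same genes did not always follow the chosen one. Of 66 probe sets above background in wild type GMP or CMP, 40 were lower in GMP and 4 higher, where 26.8% and 30.6% of all probe sets above background were. Against HSC it was 26 and 8 of 66 (19.9% and 26.1%), and against CLP 31 and 6 of 64 (20.2% and 28%). For Kmt2e, the set used above differed from HSC by -4.13 and another by -4.08 ± 0.28. A further set differed by -1.76 ± 0.23, also called, and the last above background by -0.28 ± 0.26, which was not called. For Setd3, the only other set differed by 0.54 ± 0.20, higher in GMP and called. For Kdm6b, another set differed by -2.50 ± 0.63, and one whose suffix marks possible cross-hybridisation by -0.77 ± 0.44. The change from HSC to GMP in the chosen set less that in the flattest other set was -3.85 for Kmt2e, -3.39 for Setd3 and -4.38 for Kdm6b in wild type and -4.06, -2.96 and -4.28 in Mll-AF9 samples. These pairs were picked for their disagreement, so the values are given with no test. With the mean of all probe sets the differences from HSC were -1.67 for Kmt2e, -1.15 for Setd3 and -2.81 for Kdm6b, all still called. Which transcripts each probe set reads was not tested.

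Disagreement reached further genes. Among the other probe sets above background, 18 gave the same result as the chosen set for GMP against CMP, both called in 1 direction or neither called. A further 5 were not called where the chosen set was, and 1 had the opposite call. For HSC these were 17, 9 and 1, and for CLP 20, 7 and 0. Conversely, 8, 5 and 3 other sets were called where the chosen set was not, against CMP, HSC and CLP. Against CMP these were lower sets of Kdm1a (-0.92), Kdm2b (-0.52) and Setd1b (-0.49), and of Kdm3b, Setd1a and Suv39h2, below background in GMP. Those of Ehmt2 and Kmt2d, given above, were higher. A second Kdm2a set differed by -0.09 from CMP, 0.08 from HSC and 0.32 from CLP, none called, against called differences in the chosen set. For Nsd1 a second set differed by 0.07 from HSC and -0.16 from CLP, and for Kdm5b one differed by 0.00253 from CLP, with no call. All 4 probe sets of Kmt2c were lower in GMP than in HSC (-0.97 to -3.14). Kdm5a had one set below background in GMP (3.90, at least 6.68-fold lower than HSC), one called lower (4.90 against 6.40 in HSC), and one not called (4.08, below background, against 4.66). The mean of all probe sets also shrank the wild type differences of Smyd5 in GMP to 0.52 from HSC and 0.57 from CLP, and that of Smyd3 from CLP to 0.41, with the calls kept.

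**Figure D4:**
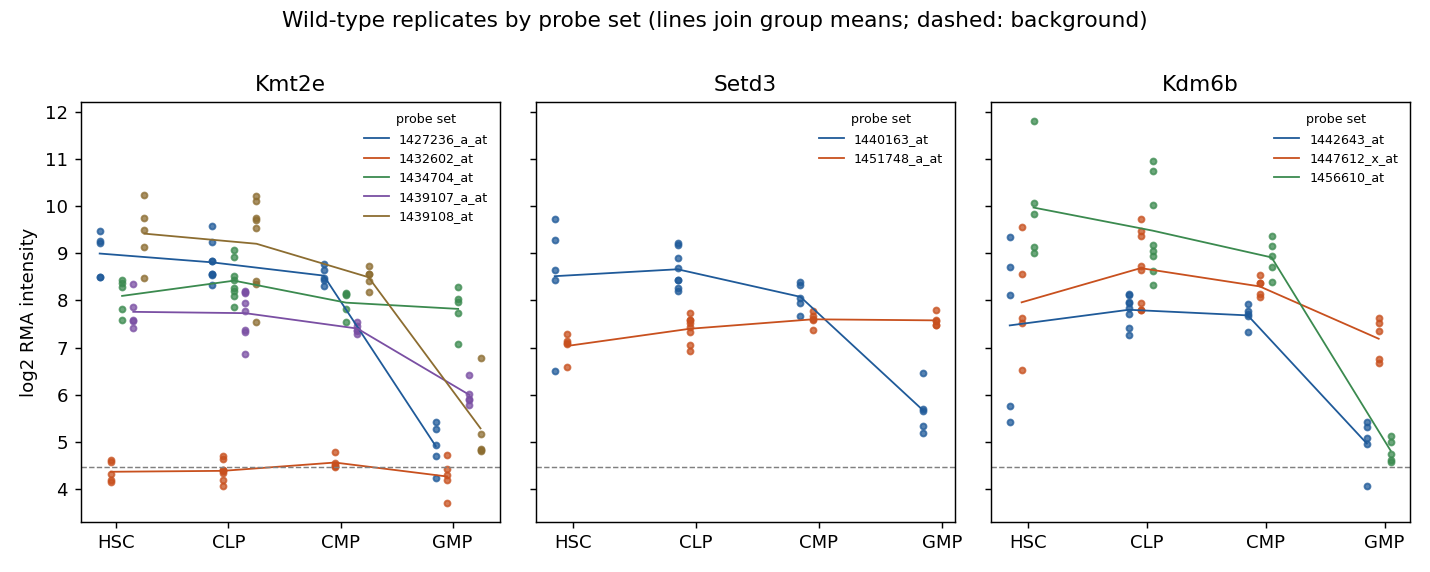
Log2 RMA intensity of wild type replicates (points) and group means (lines) for each probe set of Kmt2e, Setd3 and Kdm6b above background in some group, in HSC, CLP, CMP and GMP, with background dashed. The sets with the steepest drop in GMP share their gene with sets that stay nearly level in Kmt2e and Setd3.

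CMP differed from HSC and CLP in fewer genes, in both directions. Against HSC, 7 genes were higher and 4 lower (13.8% and 12.8% of all genes), and against CLP, 5 higher and 4 lower (12.4% and 12% of all genes). The count against HSC was unsteady, at 6 without CMP replicate 1, 7 without replicate 3 and 6 without replicate 5. Setd7 was lower in CMP than in HSC and CLP, and not called against GMP (0.26). It read 6.95, 6.76, 6.97, 6.72 and 6.66 in CMP and 8.49, 7.48, 8.19, 8.09 and 7.87 in wild type HSC, with no overlap and a difference of -1.21 ± 0.19. It differed by -0.96 ± 0.21 from CLP. With the mean of its probe sets these were -0.57 and -0.43, still called. In Mll-AF9 cells it differed by -1.16 and -0.95 from HSC and CLP, both called. Setd8 was highest in CMP, reading 8.34, 8.64, 8.50, 8.58 and 8.62 there and 7.44, 7.65, 7.96, 7.57 and 8.06 in HSC. Its difference was 0.80 ± 0.16 from HSC and 0.82 ± 0.19 from CLP, and 1.27 and 1.20 in Mll-AF9 cells, all called. Setdb1 was higher in CMP than in CLP by 0.96 ± 0.21 and than in HSC by 0.70 ± 0.17, and Smyd3 was higher than in CLP by 1.06 ± 0.23. With the mean of all probe sets the differences from CLP were 0.46 for Setdb1 and 0.48 for Smyd3, still called.

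Some proliferation genes were also higher in CMP than in HSC. The list of 7 measured proliferation genes had 4 members higher in wild type CMP than in HSC and none lower (13.8% and 12.8% of all genes). Its mean ran from 8.96 to 9.23 in CMP and from 7.24 to 9.13 in HSC. In wild type GMP, 3 of the 7 were higher than in HSC and none lower (22.3% and 13.5% of all genes). There the means in GMP and HSC were 7.79 and 7.74 for Setd8, 7.24 and 7.23 for Setdb1, and 5.82 and 5.20 for Suv39h2. Suv39h2 read 6.06, 5.99, 6.00, 6.13 and 5.84 in CMP and 4.34, 4.59, 5.84, 5.34 and 5.90 in HSC, where replicates 1 and 2, the lowest for Suv39h2, also had the lowest proliferation means, 7.24 and 7.71. Its difference of 0.80 ± 0.27 from HSC lost its call without any of CMP replicates 1 to 5 or HSC replicates 1, 2 and 4, and with the first CMP run (0.70). The part of proliferation in these results was not tested.

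Kmt2e and Kdm3b were lower in CMP than in HSC, by differences of -0.92 ± 0.26 and -0.68 ± 0.20. The call for Kmt2e was lost without CMP replicate 1 with the mean of all its probe sets (-0.21) and with all 8 groups in 1 model, and that for Kdm3b without CMP replicate 5, with the second CMP run (-0.37) and with the mean of all its probe sets (-0.46). Kdm3b read 7.79, 7.65, 7.85, 7.73 and 7.19 in CMP and 8.64, 8.59, 8.07, 8.52 and 7.81 in HSC, overlapping only through HSC replicate 5. Kdm5a was higher in CMP than in HSC, reading 7.44, 7.43, 7.24, 7.32 and 7.13 against 6.29, 6.81, 6.71, 6.02 and 6.72. The groups did not overlap (0.80 ± 0.18), but the call was lost with the mean of all Kdm5a probe sets (0.000748) and with all 8 groups in 1 model. Setd3 and Kdm3b were lower in CMP than in CLP (-0.58 ± 0.20 and -0.75 ± 0.16), and the call for Setd3 was lost without any of CMP replicates 1, 4 and 5 or CLP replicates 1, 2, 4 and 5, with the mean of all its probe sets (-0.19), with the second CMP run (-0.45) and with all 8 groups in 1 model. The call for Kdm3b was lost with the second CMP run (-0.43).

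No gene was called between CLP and HSC. In wild type cells 0 of 34 were called by limma (1 at an unadjusted p below 0.05), where 0.0385% of all genes were called, and in Mll-AF9 cells 0 of 34 (4 at an unadjusted p below 0.05), where 0.324% of all genes were called.

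In the Mll-AF9 populations, which are other samples than the wild type ones, GMP also had more genes lower than higher. Mll-AF9 GMP had 11 genes lower and 1 higher than CMP (14.1% and 22.2% of all genes), 13 lower and 1 higher than HSC (11.8% and 17.3%), and 12 lower and 1 higher than CLP (11.3% and 14.9%). The last count was 8 without Mll-AF9 GMP replicate 1 over both directions. Against CMP, 10 genes were called in the same direction in both genotypes, 52.6% of the wild type calls and 83.3% of the Mll-AF9 calls, where over all genes these shares were 64% and 81.3%. Against HSC there were 11 (64.7% and 78.6%, over all genes 60.1% and 73.9%) and against CLP 11 (52.4% and 84.6%, over all genes 50.6% and 75.8%). The shares of the list were thus near those of all called genes. Some wild type calls had the opposite sign in Mll-AF9 samples, none of them called there. These were Smyd2 in GMP against CMP, Kdm5a in GMP against CLP (0.14) and Setd3 in CMP against CLP (0.70). Kmt2e, Kdm2a, Kdm5b and Kdm6b were lower in GMP in all 3 comparisons in both genotypes by their chosen probe sets, and Setd5 was higher than in CMP and HSC in both. In Mll-AF9 CMP, 2 genes were higher and 3 lower than in HSC (8.87% and 9.37% of all genes), 8 in all without HSC replicate 2, and 2 were higher and 2 lower than in CLP (7.87% and 9.57%).

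Other genes of the same machinery showed mixed directions between wild type populations. Of 42 further measured genes, 12 were lower and 5 higher in GMP than in CMP, and 13 lower and 8 higher than in HSC, where of all genes 16.4% were lower and 29.8% higher than in CMP and 13.5% and 22.3% than in HSC. Among the partners of the Mll-type complexes, Wdr82 (-1.53 from CMP, -1.46 from HSC) and Wdr5 (-0.72 and -0.75) were lower and Dpy30 (0.72 and 1.48) was higher. The H3K79 methyltransferase Dot1l (-1.38 and -1.21) and the Nsd1 relative Nsd3 (-1.42 and -1.42) were lower. Gfi1, the Kdm1a partner of granulocytic cells, was higher in GMP (7.36) than in CMP (3.93, below background), and Gfi1b, its erythroid counterpart, was lower by a difference of -3.98. By genotype, Mecom and Prdm16 were the only called genes of the 42. Mecom was higher in Mll-AF9 GMP (7.37 against 4.09), CMP (8.22 against 4.30) and CLP (10.05 against 8.42), with wild type GMP and CMP below background. Prdm16 was higher in Mll-AF9 GMP (5.21 against 3.87) and CMP (4.85 against 3.94), where the wild type means were below background, and lower in Mll-AF9 CLP (5.20 against 6.78).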

How the data were processed

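The 51 arrays were Affymetrix mouse arrays of sorted bone marrow cells, labelled in 2 cycles per the labels' protocols. The authors deposited linear intensities made with RMA, per the submitters' processing notes. The log2 of the deposited intensity was taken here. Repeated CMP runs were averaged, leaving 43 replicates. Of 45101 probe sets, 34945 have 1 gene in the platform annotation, 10092 have several or none and 64 are controls. Each of 18193 genes is read from its probe set with the highest mean. Each comparison was fitted on its own groups with limma 3.58.1 in R 4.3.3 (intensity trend, Benjamini-Hochberg adjustment over all genes, threshold 0.05), and genotype effects were compared between populations with interaction terms. The script was tested on simulated data with 200 of 18193 genes changed, and over the comparisons it recovered 53 to 88% of those changed by 1 on the log2 scale and 91 to 100% of those changed by 2.

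The genes, roles, pathway and marker lists were chosen with earlier results of these data known. Replicate values are given for the members called by genotype or, with fewer than 6, the 2 with the smallest genotype p in each population, and for the 3 called members with the largest difference in each direction in each wild type pair. Other members are given by role, and other probe sets that disagree in call are counted, with examples chosen after their values were seen. Alternatives were quantile normalisation, the mean of all probe sets, genes above background only, no intensity trend, either CMP run, all groups in 1 model, the replicate block, Y-linked and 3′ to 5′ covariates, wild type replicates low in Y-linked genes, leaving out the wild type CLP replicate with a CMP source name, and leaving out each replicate. Testing every probe set was chosen after seeing the data.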

Additional observations from a re-analysis of the deposited data

Results flagged for a closer look

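Replicates that stood apart from their group by Dixon's criterion were found in 9 of 120 groups of the 15 named genes, and chance alone gives about 1 in 20. In Mll-AF9 CLP, replicate 3 was the lowest for Setd3 (4.47), Kdm5a (5.12) and Setd8 (6.77). In Mll-AF9 HSC, replicate 2 was the highest for Setd5 (7.06) and the lowest for Setdb1 (5.18), and replicate 5 was the lowest for Kdm7a (6.41). In the GMP groups, Kmt2e was highest in wild type replicate 1 (6.79) and Setd3 in Mll-AF9 replicate 2 (6.84). Kdm3b was highest in replicate 3 of Mll-AF9 CMP (8.50). Values are log2 intensities.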

How the results depend on the processing

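Of 37 results for named genes, 28 kept their direction and their side of the threshold under every alternative run, and no result reversed. The 28 include all named genotype differences, which were not called in the main fit and stayed so. None of these alternatives put another single probe set in place of the chosen one. As given above, other sets of Setd3 and Setd5 had calls opposite to the chosen set. Of 165 counts of called genes under alternatives other than leaving out a replicate, 8 moved by more than 1.5 times. With wild type replicates low in Y-linked genes only, 1 gene was called for genotype in GMP instead of 0. With the second CMP run, 7 instead of 11 were called for wild type CMP against HSC and 5 instead of 9 against CLP. With all 8 groups in 1 model there were 6 for wild type CMP against HSC, 8 instead of 5 for Mll-AF9 CMP against HSC, and 1 instead of 0 for Mll-AF9 CLP against HSC. The cause was not tested. Leaving out 1 replicate gave 6 to 14 for wild type CMP against HSC, 4 to 8 for Mll-AF9 CMP against HSC and 8 to 15 for Mll-AF9 GMP against CLP. Replicate numbers are shared between groups. In no comparison did every same-numbered pair of samples correlate above 0.1, with correlations from -0.37 to 0.36, so the numbers were not taken as pairs. Pairing is not excluded by this rule. In wild type GMP against CMP, 4 of 5 pairs were above 0.1 and 4 replicates correlated best with their own number. Against HSC these were 2 and 4. Replicates 1 to 3 of both wild type GMP and CMP were high in Y-linked genes and replicates 4 and 5 low. With the replicate block, 6 instead of 13 genes were called for Mll-AF9 GMP against CLP and 0 instead of 4 for Mll-AF9 CMP against CLP, with the other counts within 1.5 times. The number of arrays limits the precision, and levels near background understate differences.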
